A study of Mus musculus with 19 samples.

Results

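Hepatic mRNA was compared between mice treated with IDFP and mice treated with DMSO, over all genes that the arrays detected and with the weight on genes and pathways outside the published selection of genes of lipid metabolism, protein synthesis and the acute phase. IDFP (isopropyl dodecylfluorophosphonate) is an organophosphorus inhibitor of the serine hydrolases MAGL and FAAH. The comparison used 14 of the 19 arrays of the series, with 8 IDFP-treated and 6 DMSO-treated mice and 1 mouse per array. Group sizes are those of the labels, and a note in the paper gives another number for the DMSO group. All mice were male Swiss-Webster mice of 7 weeks that were fasted for 4 h before the injection and stayed without food until the livers were taken. IDFP was injected intraperitoneally at 10 mg/kg in DMSO, controls received the same solvent, and livers were frozen 4 h after treatment. No mutation or transgene is named for either group. A further 5 arrays of mice given the CB1 antagonist AM251 before IDFP entered the fit to estimate the spread and are not described here. Each RNA was hybridized to an Illumina MouseRef-8 array, whose beads glow more brightly the more of a matching transcript binds to their probe, and signals are given in array units after background correction. A signal near 16 units is empty background, because an offset of that size was added. Log2 changes are IDFP minus DMSO, and a gene was called when its p-value from limma, adjusted by the Benjamini-Hochberg method over all 9349 genes tested, was under 0.05.

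The endocannabinoids 2-arachidonoylglycerol (2-AG) and anandamide are lipids that cells release on demand and that act on the G protein-coupled receptors CB1 and CB2. MAGL and FAAH end their action by hydrolysis, so that inhibitors of these enzymes raise the levels of both ligands. In liver, CB1 is known for promoting fat synthesis, and CB2 is found on immune cells. An organophosphorus fluoridate can also react with other serine hydrolases, a family that includes the carboxylesterases with which the liver cleaves esters of drugs and lipids.

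The tissue label was borne out by its markers. Summed signals of 8 hepatocyte genes lay between 140316 and 161653 units in IDFP-treated and between 146172 and 162247 units in DMSO-treated mice, and 1 of them, Hnf4a, was called, as described below. Among markers of other cells, 10 of Kupffer cells and macrophages summed to 6345 to 9389 units after IDFP (median 7622) and 6579.8 to 9291 after DMSO (median 7636). Of 12 listed neutrophil markers only 5 were tested. They summed to 901 to 1618 units after IDFP (median 1114) and 610.2 to 1443 after DMSO (median 831). No gene of either list was called. The 9 markers of sinusoidal endothelium summed to 7561 to 10582 after IDFP and 8508 to 11272 after DMSO, and 1 of them, Clec4g, was lower (-0.36, adjusted p = 0.0276). Of 12 lymphocyte markers 4 were detected, all dimly, with sums of 212 to 270.5 and 244 to 283, and Cd3e was lower (-0.34, adjusted p = 0.0427), both markers being named for their calls after the values were seen. The call of Clec4g was lost without IDFP 2, DMSO 3, DMSO 4 or DMSO 5 and that of Cd3e without IDFP 2, IDFP 3, IDFP 4, IDFP 5, IDFP 6, DMSO 2, DMSO 3, DMSO 4, DMSO 5 or DMSO 6. IDFP 4 stood apart in the sum of 9 markers of stellate cells and fibroblasts. They summed to 21324 units in this mouse and to at most 13451 in the others of its group, against 10583 to 13732 after DMSO. A single marker, Acta2, named after its values were seen, made up 7929 units of the sum in IDFP 4. The high sum is therefore not a rise shared by the 9 markers. Between 9001 and 9160 genes were detected per array. In whole liver, fewer cells of a type and less RNA per cell cannot be told apart, and differences between chips were not analysed here.

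IDFP changed 16.3% of the genes tested, with 632 higher (6.76%) and 891 lower (9.53%). Most changes were small. The median log2 change was 0.47 for the higher and -0.47 for the lower genes, 48 genes were more than 2-fold higher and 66 more than 2-fold lower, and the median over all genes tested was -0.000888. These sizes compare with median SDs between mice of 1 group of 0.20 log2 units after IDFP and 0.21 after DMSO. For 4.24% of the genes tested all IDFP-treated mice lay on 1 side of all DMSO-treated mice, and 388 of these were called, 138 higher and 250 lower. Counted with or without a call, 1.52% of all genes lay wholly above and 2.72% wholly below the DMSO-treated mice. Without DMSO 5 only 407 genes were higher. Leaving out any single array kept 944 of the 1523 calls.

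The size of the response in single mice was measured on pairs of 1 IDFP-treated and 1 DMSO-treated mouse. For each of the 48 pairs the genes were called on the other arrays, so that the pair had no part in choosing them, and the difference within the pair was then compared with the fitted change. In the median pair 88.1% of the called genes differed in the fitted direction, with a range of 69.7 to 96.8%. The slope of the pair's differences on the fitted changes had a median of 0.87. Choosing genes by a threshold makes their fitted changes too large on average, so a slope under 1 does not by itself mark a smaller response, and slopes are compared between mice only. By IDFP-treated mouse, the median slope was 0.56 for IDFP 1 and 0.78 for IDFP 6 and lay between 0.84 and 0.98 for the other 6 mice. The DMSO-treated mice spread as widely, with medians of 0.57 for DMSO 1, 0.63 for DMSO 6, 0.87 for DMSO 2, 0.93 for DMSO 3, 1.04 for DMSO 4 and 1.13 for DMSO 5. The fit and its called genes differ between pairs, with a median of 1575 genes for pairs with DMSO 1 and 900 for pairs with DMSO 5. Leaving out a mouse also shifts the fitted changes, so the slopes of different mice are not measured on 1 scale. Thus no pair went against the fitted change, and pairs with IDFP 1, DMSO 1 or DMSO 6 showed the smallest differences.

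**Figure D1:**
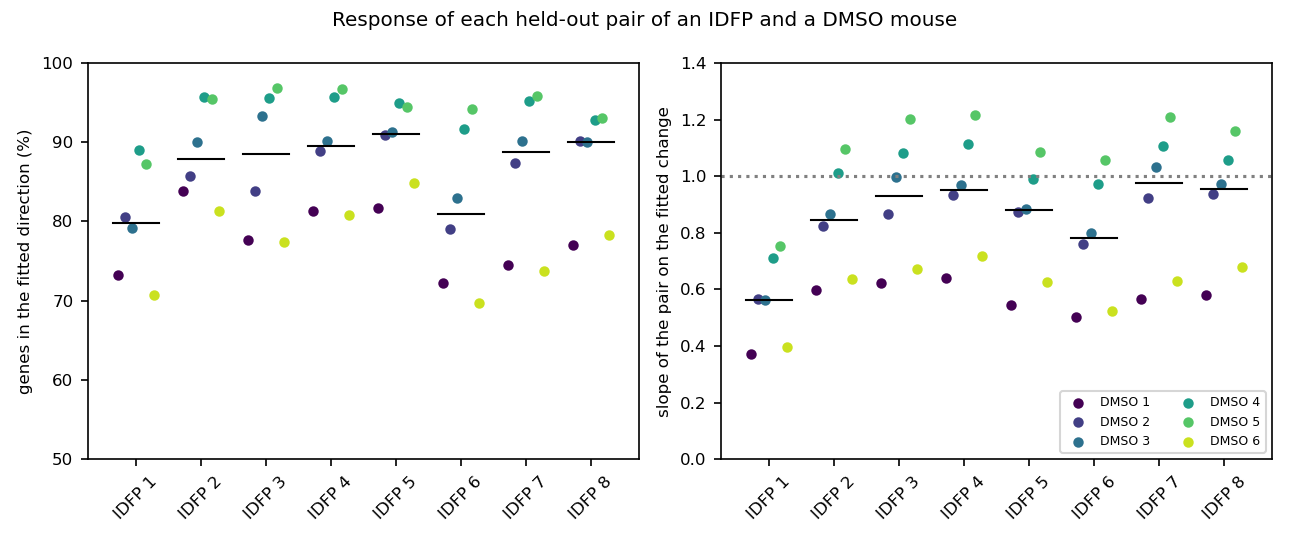
Each point is a pair of 1 IDFP-treated mouse (horizontal axis) and 1 DMSO-treated mouse (color), with the percentage of called genes that differed in the fitted direction on the left and the slope of the pair's log2 differences on the fitted log2 changes on the right. Black lines are medians over the 6 pairs of an IDFP-treated mouse, the dotted line marks a slope of 1, and IDFP 1 has the lowest median slope, 0.56.

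Transcripts of the enzyme family that IDFP inhibits were called at a share near that of all genes. Of 28 serine hydrolases tested, 3 were higher, 1 was lower and 24 did not pass the test, so that 14.3% were called, against 16.3% of all genes (2 called without DMSO 3 or DMSO 5). Abhd6, which hydrolyzes 2-AG at the cell membrane, had signals of 70.1 to 106 units after IDFP with a median of 78.2, and 54.2 to 67.1 after DMSO with a median of 59.1 (log2 change 0.46, SE 0.11, adjusted p = 0.00741). Its groups did not overlap, although all signals were dim. Ces1e, a carboxylesterase, had signals from 1999 to 3439.8 units (median 2711) in the IDFP group and 1314 to 2261 (median 1947) in the DMSO group (log2 change 0.55, SE 0.14, adjusted p = 0.00864), and the groups overlapped. The other calls were lost without single arrays: Abhd12, a lysophospholipase that also cleaves 2-AG, at 0.32 (lost without IDFP 5, DMSO 3, DMSO 4 or DMSO 5) and Apeh, which removes acylated amino acids from peptides, at -0.31 (lost without DMSO 3 or DMSO 5). The brightest members were the carboxylesterases Ces1d, with 26230.0 ± 2999.5 units after IDFP (SD, n = 8) and 26400.3 ± 3104 after DMSO (SD, n = 6), and Ces1c, with 17659 ± 2238 units after IDFP (SD, n = 8) and 18079 ± 1083 after DMSO (SD, n = 6), and their log2 changes were -0.01 and -0.04. The other members that did not pass had log2 changes between -0.28 and 0.35. Mgll and Faah, which encode MAGL and FAAH, were at 0.12 (SE 0.14) and -0.11 (SE 0.10). The other probes of Mgll gave log2 changes of 0.17 and 0.26, and those of Faah gave opposite log2 changes of -0.35 and 0.53, so that the direction of Faah depends on the probe.

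Single genes of receptors and G protein signaling were called. Cnr2, which encodes CB2, was lower after IDFP, with signals between 78.1 and 146 units in IDFP-treated mice (median 123), against 136 to 244 in DMSO-treated mice (median 163) (log2 change -0.62, SE 0.15, adjusted p = 0.00752). Of the DMSO-treated mice 1 lay within the IDFP range, and Cnr1, which encodes CB1, was below detection. P2ry13, which encodes an ADP receptor, had signals of 55.1 to 128 units after IDFP with a median of 66.6, and 167 to 270.1 after DMSO with a median of 184 (log2 change -1.44, SE 0.18, adjusted p = 2.08e-05) and no overlap. Rgs1, which speeds the turn-off of G alpha subunits, was from 128 to 340.4 units (median 284) in the IDFP group and 36.9 to 116 (median 47.2) in the DMSO group (log2 change 2.20, SE 0.26, adjusted p = 1.26e-05), and its dimmer probes gave log2 changes of 1.27 and 1.11. Gna12, the alpha subunit of G12, had signals between 189 and 286 units in IDFP-treated mice (median 229.7), against 63.5 to 144 in DMSO-treated mice (median 122) (log2 change 1.09, SE 0.17, adjusted p = 0.000207). Crem, a transcription factor of cAMP signaling, was lower, at -0.79 (adjusted p = 0.000301). Of 34 genes of G protein and cAMP signaling in all, 3 were higher, 2 were lower and 29 did not pass (8 called without DMSO 6), with a median of 0.05, so that the share called, 14.7%, was near that of all genes. The markers of Kupffer cells had the sums given above, and the part of these cells in the changes of Cnr2, P2ry13 and Rgs1 was not tested.

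Several kinases of the MAP kinase pathways were higher in every IDFP-treated mouse than in any DMSO-treated mouse. Of 32 MAP kinases, their targets and dual-specificity phosphatases, 8 were higher (25%, against 6.76% of all genes), 2 were lower and 22 did not pass, with a median of 0.05. Of the 32, 5 were called higher without overlap, where 1.52% of all genes lay wholly above the DMSO-treated mice. Mapkapk2, the kinase that p38 activates and that stabilizes cytokine mRNAs, had signals of 719 to 1613 units after IDFP with a median of 865, and 316 to 516 after DMSO with a median of 428 (log2 change 1.10, SE 0.17, adjusted p = 0.000165). IDFP 8 had the highest signal, and the groups did not overlap. Mknk2, which phosphorylates the initiation factor eIF4E, had signals from 1473 to 2360.2 units (median 1661) in the IDFP group and 485 to 1314 (median 847) in the DMSO group (log2 change 1.04, SE 0.19, adjusted p = 0.000734). Dusp16, a phosphatase that acts on JNK, was between 1199 and 1618 units in IDFP-treated mice (median 1469), against 645 to 1126 in DMSO-treated mice (median 844) (log2 change 0.77, SE 0.11, adjusted p = 0.000104). Mapk6, an atypical MAP kinase, was higher, at 0.63 (adjusted p = 0.000694), again without overlap, and its other probes gave log2 changes of 0.08 and 0.68. Against these, Map3k1, an upstream kinase of JNK, was at -0.99 (adjusted p = 0.00275), and Dusp11, which despite its name acts on RNA, was at -0.70 (adjusted p = 0.000627), with a log2 change of -0.16 for its second probe.

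Among immediate early genes, which cells switch on within minutes of a stimulus, 11 of 22 were higher, 0 were lower and 11 did not pass, with a median of 0.66, the highest of the 48 lists. The share higher was 50%, against 6.76% of all genes. Single mice differed widely in these genes. Gadd45b, a growth arrest gene, had signals of 157 to 819 units after IDFP with a median of 649.5, and 62 to 228 after DMSO with a median of 70.1 (log2 change 2.69, SE 0.35, adjusted p = 3.56e-05). Zfp36, which binds and destabilizes AU-rich mRNAs, had from 1167 to 2929 units (median 2175) in the IDFP group and 529 to 1451 (median 927) in the DMSO group (log2 change 1.15, SE 0.23, adjusted p = 0.00186). Jun, a subunit of AP-1 named after its values were seen, was the only called member whose groups did not overlap, with signals between 235 and 342 units in IDFP-treated mice (median 285), against 101 to 224 in DMSO-treated mice (median 201) (log2 change 0.66, SE 0.16, adjusted p = 0.00891). Jund was at 1.15, Klf4 at 0.74, Klf2 at 0.87 and Rhob at 0.73. Gadd45g, the brightest member, had 6481 ± 3595 units after IDFP (SD, n = 8) and 8036 ± 2825 after DMSO (SD, n = 6) and did not pass. Outside this list, Cebpb, a transcription factor of the acute phase and of gluconeogenesis, had signals of 8872 to 11405 units after IDFP with a median of 10618, and 2408 to 8761 after DMSO with a median of 4920.4 (log2 change 1.03, SE 0.19, adjusted p = 0.000992) and no overlap.

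**Figure D2:**
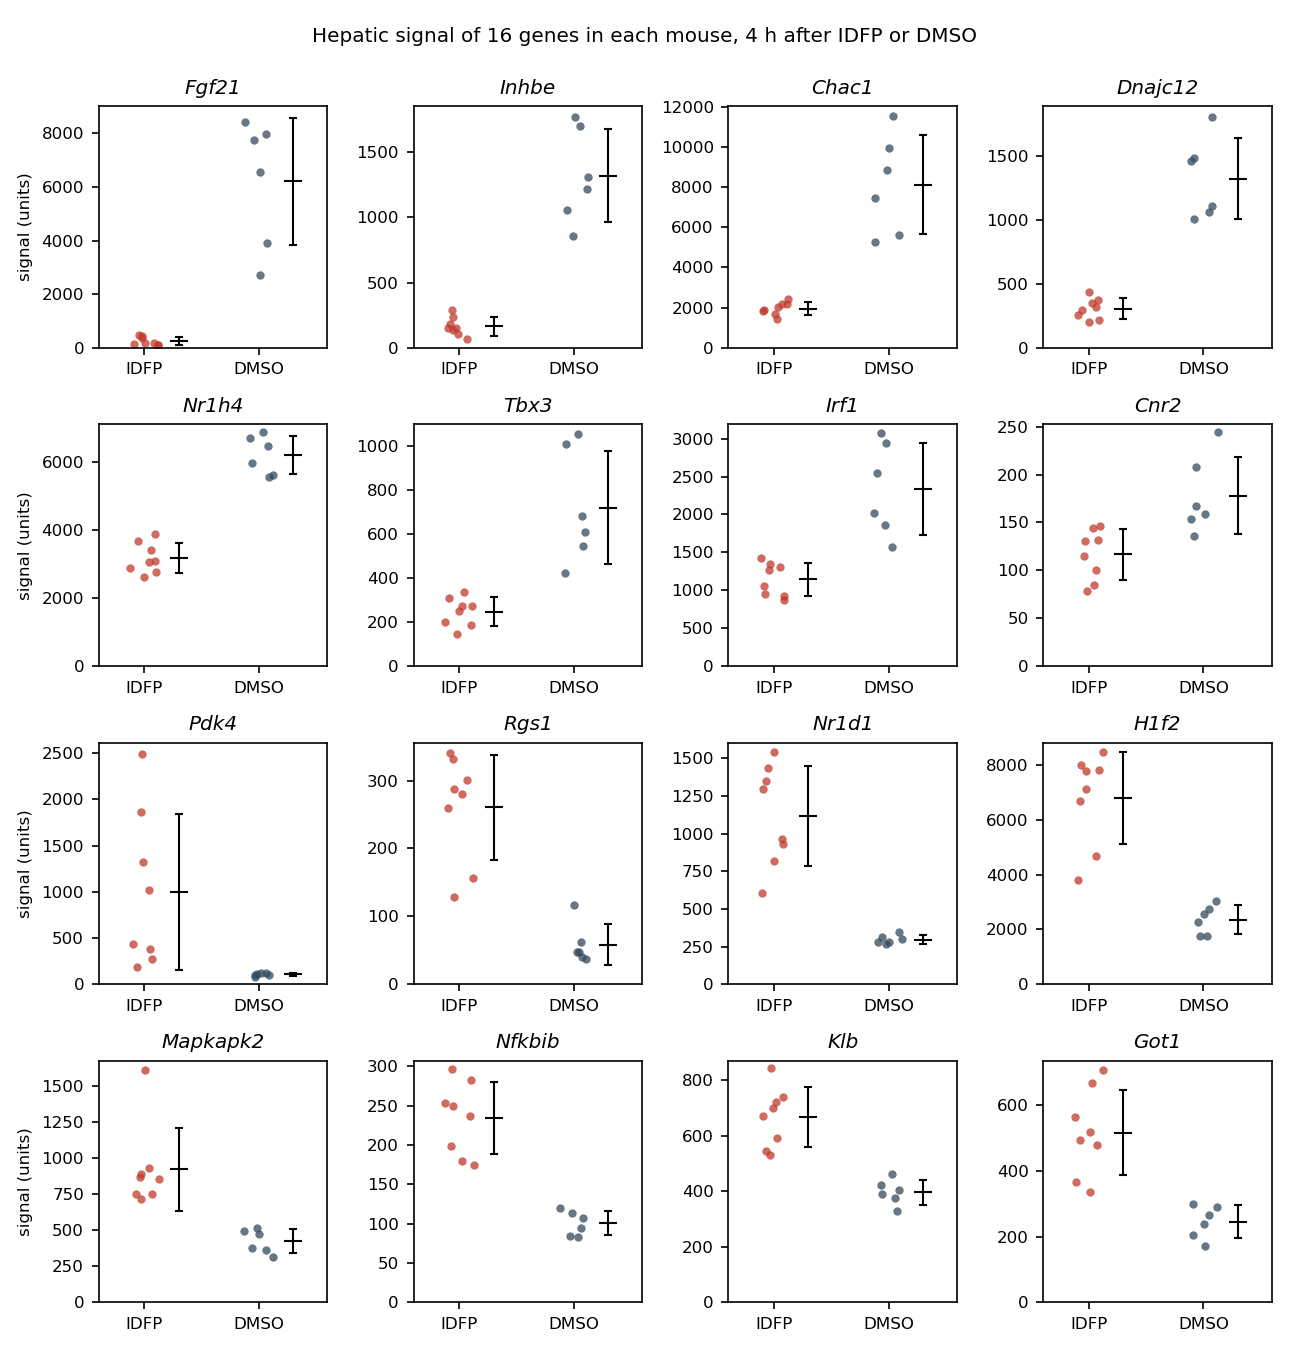
Signals in array units (vertical axes, starting at 0) of 16 genes, with 1 point per mouse, IDFP-treated mice on the left in red and DMSO-treated mice on the right in dark blue, and the mean ± SD beside each group. For each gene but Cnr2 the groups do not overlap, and Pdk4 spreads from 184 to 2492 units among the IDFP-treated mice.

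Large falls were shared by secreted factors and by genes that respond to amino acid shortage. Fgf21, a hormone of fasting, had signals from 96.8 to 497 units (median 177) in the IDFP group and 2713 to 8398 (median 7154) in the DMSO group (log2 change -4.76, SE 0.44, adjusted p = 1.29e-06). Inhbe, a subunit of activin E that hepatocytes secrete, had signals between 64.7 and 286 units in IDFP-treated mice (median 154), against 860.2 to 1766 in DMSO-treated mice (median 1264) (log2 change -3.08, SE 0.26, adjusted p = 4.53e-07). Chac1, which breaks down glutathione, had signals of 1437 to 2426 units after IDFP with a median of 1963, and 5289 to 11522 after DMSO with a median of 8160.4 (log2 change -2.01, SE 0.17, adjusted p = 4.53e-07). The lowest DMSO-treated mouse was above the highest IDFP-treated mouse by more than 2-fold for all of these 3 genes. Their promoters hold the same 8 letters, TTGCATCA, on the strand read from the gene, which is the reverse of the element TGATGNAA that the C/EBP and ATF families are known to bind. They are shown as stretches of 100 bases from the 250 bases before the annotated start (RefSeq, GRCm38.p6, 5′ to 3′ on the strand of the gene), with the element in capitals.
Fgf21: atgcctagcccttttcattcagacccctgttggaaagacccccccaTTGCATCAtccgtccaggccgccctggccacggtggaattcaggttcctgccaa
Inhbe: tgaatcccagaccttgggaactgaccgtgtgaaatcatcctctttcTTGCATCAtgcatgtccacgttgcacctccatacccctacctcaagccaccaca
Chac1: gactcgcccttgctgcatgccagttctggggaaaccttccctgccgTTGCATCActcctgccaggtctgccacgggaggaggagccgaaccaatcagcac
The element begins 139 bases before the start of Fgf21 (chr7:45615576-45615675, minus strand), 181 before that of Inhbe (chr10:127351976-127352075, minus strand) and 193 before that of Chac1 (chr2:119351003-119351102, plus strand). The genes and the element were picked after the values were known. Over windows of 300 bases, from 250 before to 50 after the start and on both strands, TGATGNAA was found in 4.51% of 27025 genes with a promoter sequence and in 3.13% of those tested. Leaving out the 3 genes from which it was picked, it was found in 7 of 56 genes called and more than 2-fold lower, and in 4 of 36 genes called and more than 2-fold higher. Another element, TTCNNNGAA of the STAT factors, was found in 10 of 56 and 6 of 36 of these lower and higher genes and in 8.38% of those tested. Mthfd2, a mitochondrial folate enzyme, had signals from 58.9 to 146 units (median 71.7) in the IDFP group and 233 to 421 (median 297) in the DMSO group (log2 change -1.93, SE 0.22, adjusted p = 7.96e-06), and its window does not hold these letters.

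Other secreted factors of the liver moved both ways. Of 23 hepatokines and IGF system genes, 4 were higher, 5 were lower and 14 did not pass, and their median was 0.00. This is a share of 39.1% called, against 16.3% of all genes. Fgl1, which hepatocytes secrete in the acute phase, had signals between 9846 and 14261 units in IDFP-treated mice (median 12182), against 14938 to 22353 in DMSO-treated mice (median 18466) (log2 change -0.62, SE 0.11, adjusted p = 0.00073). Angptl8, which controls lipoprotein lipase, was at -1.14 (adjusted p = 0.00752). In the other direction, Igfbp2, which binds insulin-like growth factors, had signals of 3470.0 to 5615 units after IDFP with a median of 4119.5, and 2490.0 to 3189.7 after DMSO with a median of 2696 (log2 change 0.64, SE 0.11, adjusted p = 0.000363). Fst, the activin antagonist follistatin, had from 73.9 to 165 units (median 109) in the IDFP group and 45.2 to 63 (median 55.5) in the DMSO group (log2 change 0.99, SE 0.20, adjusted p = 0.0019). Both were without overlap. Of 26 genes of the amino acid response, 2 were higher, 6 were lower and 18 did not pass (30.8% called), with a median of -0.26. Atf4, the central transcription factor of this response, named after its values were seen, was lower (log2 change -0.58, SE 0.15, adjusted p = 0.0137), whereas Atf3, which stress induces, was at 1.93 (adjusted p = 0.0132) with signals between 64.4 and 957 among the IDFP-treated mice. Atf5, the brightest member, did not pass at -0.34. Eif4ebp1, an inhibitor of cap-dependent translation, was lower (log2 change -0.75, SE 0.14, adjusted p = 0.000915). Flcn, the tumor suppressor folliculin that takes part in amino acid sensing at lysosomes, had signals between 668 and 1402 units in IDFP-treated mice (median 972), against 2026 to 3998 in DMSO-treated mice (median 2719) (log2 change -1.44, SE 0.16, adjusted p = 7.96e-06), and its second probe gave a log2 change of -0.70.

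Among genes that build, modify and read RNA most members of each family did not pass, and lower genes outnumbered higher ones among those called. These families were put together by gene name, and their members named here chosen, after the values had been seen, so their counts are a description and stand beside 9.53% lower among all genes. Of 62 genes of tRNA and RNA modification and tRNA splicing, 13 were lower (21%), 1 was higher and 48 did not pass, with a median of -0.08. Pus7l, a pseudouridine synthase, had signals of 75.8 to 133 units after IDFP with a median of 83, and 157 to 213 after DMSO with a median of 181 (log2 change -1.03, SE 0.11, adjusted p = 4.47e-06). Trmt1l, a relative of a tRNA methyltransferase, had signals from 383 to 646 units (median 505) in the IDFP group and 876 to 1399.7 (median 1175) in the DMSO group (log2 change -1.16, SE 0.16, adjusted p = 4.93e-05). Tsen15, a subunit of the endonuclease that splices tRNA, had between 261 and 384 units in IDFP-treated mice (median 319), against 487 to 881 in DMSO-treated mice (median 655) (log2 change -1.05, SE 0.13, adjusted p = 2.28e-05). None of these 3 overlapped between the groups. Mettl6, a tRNA methyltransferase, was at -1.02 (adjusted p = 6.5e-05), and Mettl3 and Mettl14, the partners that write N6-methyladenosine, had log2 changes of -0.93 (adjusted p = 0.000149) and -0.37 (adjusted p = 0.0102). The member that was higher was Nsun2, an RNA cytosine methyltransferase, at 0.48 (adjusted p = 0.00132).

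The called factors of mitochondrial gene expression were lower. Of 23 factors of mitochondrial transcription, RNA handling and translation, 9 were lower (39.1%), 0 were higher and 14 did not pass, with a median of -0.25. Mterf3, a factor that binds mitochondrial DNA, had signals of 771 to 979 units after IDFP with a median of 856, and 1103 to 1560.5 after DMSO with a median of 1342 (log2 change -0.64, SE 0.08, adjusted p = 3.89e-05). Mterf1a, a terminator of mitochondrial transcription, had from 100.3 to 178 units (median 126) in the IDFP group and 212 to 331 (median 251) in the DMSO group (log2 change -0.97, SE 0.13, adjusted p = 3.89e-05). Fastkd5, which takes part in mitochondrial RNA processing, had between 395 and 535 units in IDFP-treated mice (median 490.1), against 671 to 927 in DMSO-treated mice (median 805) (log2 change -0.77, SE 0.10, adjusted p = 3.89e-05). The groups did not overlap for these 3 genes, nor for the ribosomal RNA methyltransferases Mrm1 (-0.74) and Mrm3 (-0.42). Proteins of the mitochondrial ribosome were near the background. Of 68, 8 were lower (11.8%, against 9.53% of all genes), 1 was higher and 59 did not pass, with a median of -0.01. The share called was 13.2%, against 16.3% of all genes (4 called without DMSO 5). The subunits Mrpl1 (log2 change -0.46, SE 0.07, adjusted p = 0.000276) and Mrpl50 (log2 change -0.43, SE 0.08, adjusted p = 0.00126) were lower without overlap, but the second probe of Mrpl1 gave a log2 change of -0.03. Subunits of oxidative phosphorylation did not share this direction, with 2 of 72 higher, 1 lower and a median of 0.08 (1 called without DMSO 3, DMSO 4, DMSO 5, IDFP 2, IDFP 4, IDFP 5 or IDFP 8).

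In the nuclear machinery of transcription and splicing most genes did not pass either. Of 68 subunits of Mediator, of general transcription factors and of RNA polymerases II and III, 12 were lower (17.6%), 2 were higher and 54 did not pass, with a median of -0.08. Med20, a subunit of Mediator, had signals of 206 to 293 units after IDFP with a median of 226, and 348 to 639 after DMSO with a median of 532 (log2 change -1.10, SE 0.14, adjusted p = 2.41e-05). Taf5, a subunit of TFIID, had from 43.6 to 71.8 units (median 63.5) in the IDFP group and 85 to 112 (median 100.4) in the DMSO group (log2 change -0.68, SE 0.09, adjusted p = 6.5e-05) and a log2 change of -0.28 for its second probe. Gtf2h3, a subunit of TFIIH, had between 483 and 644 units in IDFP-treated mice (median 562), against 659 to 1047 in DMSO-treated mice (median 908) (log2 change -0.63, SE 0.10, adjusted p = 0.000296). No overlap was seen in these 3 genes. Of 115 splicing factors and RNA helicases, 18 were lower (15.7%), 9 were higher and 88 did not pass (14 called without DMSO 4 or DMSO 5). Rbm5, a regulator of splicing and apoptosis, had signals of 624 to 878 units after IDFP with a median of 668, and 1080.3 to 1836 after DMSO with a median of 1621 (log2 change -1.11, SE 0.12, adjusted p = 5.38e-06), and its second probe gave a log2 change of -1.02. Srsf1 was lower (-0.61, adjusted p = 0.000671), whereas the splicing regulator Hnrnpl was higher (0.44, adjusted p = 0.00278). Of 146 genes named Zfp with a number, most of which encode zinc finger proteins, 33 were lower (22.6%), 5 were higher and 108 did not pass (Zfp36 was among the higher ones), with a median of -0.12. The lower ones included Zfp790 (log2 change -1.27, SE 0.16, adjusted p = 3.19e-05), Zfp60 (log2 change -1.01, SE 0.13, adjusted p = 2.96e-05) and Zfp46 (log2 change -0.98, SE 0.14, adjusted p = 9.76e-05), each without overlap. Many genes of this kind were dim: Zfp790 had signals from 40.7 to 93.1 units (median 52.1) in the IDFP group and 114 to 172 (median 122) in the DMSO group. Regulators of chromatin were near the background in both directions, with 7 higher and 8 lower of 83. Of the 83, 4 were called without overlap, all of them higher. Among all genes 1.52% lay wholly above and 2.72% wholly below the DMSO-treated mice. The 4 were the histone methyltransferase Dot1l (0.83, adjusted p = 0.00024), Phf13 (0.66, adjusted p = 0.000165), the demethylase Kdm3a (0.45, adjusted p = 0.00159) and the deacetylase Hdac5 (0.69, adjusted p = 0.00925). Their shared direction is a description of a family put together after the values were seen. The other probes of Kdm3a gave log2 changes of 0.16 and 0.29, those of Hdac5 gave 0.34 and 0.71, and the second probe of Phf13 gave 0.28.

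Ribosome production gave a further 14 lower genes of 71 (19.7%, against 9.53% of all genes), with 1 higher and a median of -0.13 (9 called without DMSO 5). Heatr1, a factor of RNA polymerase I transcription and rRNA processing, had signals between 908 and 1542 units in IDFP-treated mice (median 1224), against 1425 to 2444 in DMSO-treated mice (median 2237) (log2 change -0.81, SE 0.14, adjusted p = 0.000612). Its other probes disagreed, with log2 changes of 0.22 and -0.65. Polr1a, the largest subunit of RNA polymerase I, had 549 to 899.8 units after IDFP with a median of 727, and 903 to 1229 after DMSO with a median of 1009 (log2 change -0.54, SE 0.11, adjusted p = 0.00141), with log2 changes of -0.15 and -0.25 for its other probes. Utp25, an rRNA processing factor, had from 107 to 138 units (median 121) in the IDFP group and 152 to 219.9 (median 175) in the DMSO group (log2 change -0.54, SE 0.09, adjusted p = 0.000319) without overlap, as for Polr1a, and log2 changes of -0.05 and -0.39 for its other probes. Few proteins of the cytosolic ribosome were called. Of 56, only Rpl7l1, a relative of ribosomal protein L7, was called (log2 change -0.41, SE 0.10, adjusted p = 0.00729), and the median was 0.06 (2 called without DMSO 3, DMSO 6, IDFP 6 or IDFP 8 and 3 called without IDFP 7). Mars1, the methionine tRNA synthetase, was lower (log2 change -0.77, SE 0.11, adjusted p = 0.000102) and was, of 24 tRNA synthetases and partners outside the published selection, 1 of 2 called (1 called without DMSO 4, DMSO 5, IDFP 1, IDFP 2, IDFP 3 or IDFP 5 and 4 called without DMSO 6). The second probe of Mars1 gave a log2 change of -0.26.

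**Figure D3:**
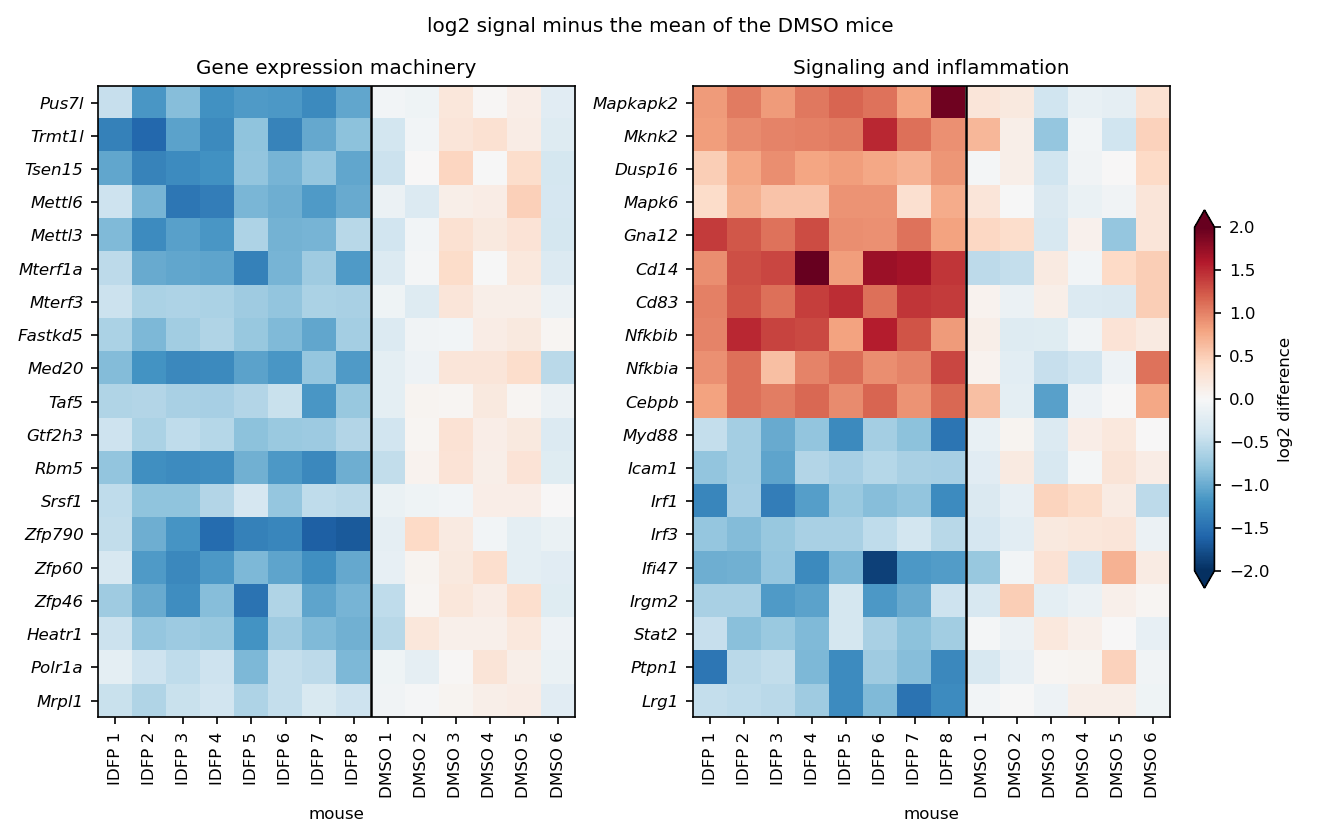
Log2 signal minus the mean of the DMSO-treated mice (color scale from -2 to 2) for 19 genes of gene expression and 19 genes of signaling and inflammation, with 8 IDFP-treated mice left and 6 DMSO-treated mice right of the black line. All 19 genes of the left panel are below the DMSO mean in every IDFP-treated mouse, and on the right Cebpb and Nfkbia vary between DMSO-treated mice as well. The left panel holds only genes called lower, so that their shared direction follows from this choice. Members of the same families that were higher or did not pass are not shown.

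Single genes of inflammatory signaling were called in both directions. Of 41 genes of the NF-κB and Toll-like receptor pathways and of cytokines, 4 were higher, 6 were lower and 31 did not pass, with a median of -0.02. The share called was 24.4%, against 16.3% of all genes (6 called without DMSO 5). Of the inhibitors that hold NF-κB in the cytosol, Nfkbib and Nfkbia were higher and Nfkbie, named here after its values were seen, was at -0.21 and did not pass. Nfkbib had signals between 174 and 296 units in IDFP-treated mice (median 243), against 83.7 to 120.1 in DMSO-treated mice (median 101) (log2 change 1.21, SE 0.16, adjusted p = 3.19e-05) without overlap. Nfkbia had signals of 542 to 901 units after IDFP with a median of 714, and 261 to 764 after DMSO with a median of 321 (log2 change 1.00, SE 0.19, adjusted p = 0.000972). DMSO 6 had the highest Nfkbia of its group and lay within the IDFP range. Cd14, the coreceptor for bacterial lipopolysaccharide, had signals from 358 to 838 units (median 524) in the IDFP group and 139 to 282 (median 209) in the DMSO group (log2 change 1.41, SE 0.29, adjusted p = 0.00247). The dendritic cell marker Cd83 had between 108 and 149.5 units in IDFP-treated mice (median 134), against 43.8 to 75 in DMSO-treated mice (median 53) (log2 change 1.27, SE 0.15, adjusted p = 1.69e-05). Both were higher without overlap. Myd88, the adaptor of Toll-like receptors, was lower, with signals of 838 to 1664 units after IDFP with a median of 1327, and 1914 to 2685 after DMSO with a median of 2366 (log2 change -0.90, SE 0.15, adjusted p = 0.000398), as was Icam1, an adhesion molecule for leukocytes, with from 329 to 458 units (median 432) in the IDFP group and 546 to 819.7 (median 711) in the DMSO group (log2 change -0.71, SE 0.19, adjusted p = 0.0155). Cxcl1, a chemokine that attracts neutrophils, had signals between 1374 and 15293 units in IDFP-treated mice (median 5032), against 14169.9 to 20404 in DMSO-treated mice (median 16086) (log2 change -1.92, SE 0.46, adjusted p = 0.00701), with a wide spread after IDFP. Nfkbia and Cxcl1 went opposite ways, and both promoters hold a match to GGGANTTTC, the shared part of NF-κB elements, shown in capitals in stretches of 100 bases before the start (RefSeq, GRCm38.p6, 5′ to 3′ on the strand of the gene).
Nfkbia: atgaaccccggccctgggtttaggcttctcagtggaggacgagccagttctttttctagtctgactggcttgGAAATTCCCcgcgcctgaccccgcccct
Cxcl1: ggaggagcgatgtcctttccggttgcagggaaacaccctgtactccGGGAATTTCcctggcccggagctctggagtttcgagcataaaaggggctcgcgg
The match shown begins 28 bases before the start of Nfkbia (chr12:55492648-55492747, minus strand), where it lies in reverse, and 71 before that of Cxcl1 (chr5:90891128-90891227, plus strand), and Nfkbia has 1 more match farther from its start. It was found in 1.29% of genes with a promoter sequence, on either strand of the same 300-base windows.

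Of the interferon-inducible and MHC genes 27.3% were lower, against 9.53% of all genes, with 12 of 44 lower, 2 higher, 30 not passing and a median of -0.07. Irf1, a transcription factor that interferon gamma induces, had signals of 869 to 1426 units after IDFP with a median of 1157, and 1569.8 to 3076 after DMSO with a median of 2281 (log2 change -1.01, SE 0.15, adjusted p = 0.000131), and its other probes gave log2 changes of -0.61, -0.66 and -0.61. Irf3, which viral sensors activate, had from 1596 to 2252 units (median 1852) in the IDFP group and 2316 to 3432 (median 3005) in the DMSO group (log2 change -0.64, SE 0.10, adjusted p = 0.000269), with log2 changes of -0.20 and -0.20 for its other probes. Ifi47 and Irgm2, GTPases of the interferon response, had log2 changes of -1.13 (adjusted p = 0.00068) and -0.81 (adjusted p = 0.0023). All 4 genes were without overlap. Nlrc5, the activator of MHC class I genes, was at -0.94 (adjusted p = 0.000363), while the MHC subunit B2m, the brightest member, was at 0.12 and did not pass. In the JAK and STAT list 3 of 25 were lower and 2 higher, 20% called against 16.3% of all genes. Stat2 had signals between 94.7 and 136 units in IDFP-treated mice (median 105), against 155 to 201 in DMSO-treated mice (median 172) (log2 change -0.68, SE 0.10, adjusted p = 8.22e-05). Ptpn1, a phosphatase that acts on JAK kinases and on the insulin receptor, had 198 to 385 units after IDFP with a median of 296, and 432 to 739 after DMSO with a median of 534 (log2 change -0.93, SE 0.16, adjusted p = 0.000505). The promoter of Irf1 holds a match to TTCNNNGAA, the element that STAT factors bind, in capitals in the stretch that follows (chr11:53769878-53769977, plus strand of GRCm38.p6, RefSeq).
Irf1: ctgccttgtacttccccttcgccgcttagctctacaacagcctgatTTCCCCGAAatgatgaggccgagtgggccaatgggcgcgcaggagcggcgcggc
It begins 90 bases before the start, and 9.55% of genes with a promoter sequence hold such a match on either strand. Of 27 acute phase genes outside the published selection, 11 were lower (40.7%, against 9.53% of all genes) and 1, Cd14, was higher, with a median of -0.38. Lrg1, a secreted glycoprotein, had signals from 9503 to 19080.0 units (median 15339) in the IDFP group and 24799.6 to 28890.0 (median 25925) in the DMSO group (log2 change -0.89, SE 0.14, adjusted p = 0.000207), without overlap. Lcn2, which sequesters iron from bacteria, had signals between 475 and 5156 units in IDFP-treated mice (median 1389.9), against 1328 to 16771 in DMSO-treated mice (median 10362) (log2 change -2.31, SE 0.51, adjusted p = 0.00407), so that the groups overlapped. Markers of neutrophils and Kupffer cells had the sums given above, and the part of these cells in the changes of inflammatory genes was not tested. Complement and coagulation factors, which hepatocytes also secrete, were below the background share, with 1 higher and 2 lower of 39. The list had 5 called without DMSO 1, 1 called without DMSO 4, IDFP 2, IDFP 3 or IDFP 8, 0 called without DMSO 5, 6 called without DMSO 6.

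Clock genes were higher without exception among those called, 7 of 16 (43.75%, against 6.76% of all genes), with a median of 0.60. Nr1d1 (REV-ERBα), a repressor that links the clock to metabolism, had signals of 604 to 1539.5 units after IDFP with a median of 1131, and 264 to 347 after DMSO with a median of 290.4 (log2 change 1.86, SE 0.18, adjusted p = 1.29e-06). Csnk1e, a kinase that phosphorylates PER proteins, had from 247 to 393 units (median 306) in the IDFP group and 133 to 221 (median 169) in the DMSO group (log2 change 0.88, SE 0.12, adjusted p = 4.93e-05), and neither overlapped. Its relative Csnk1d was at 0.72, the receptor Rora at 0.70, Per1 at 1.43 and the repressor Bhlhe40 at 0.86. Other probes of Csnk1d gave log2 changes of 0.67, 0.67, 0.42 and 0.20, and the second probes of Csnk1e and Per1 gave 0.56 and 0.88.

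The rises included genes of pyruvate use and of insulin signaling. Pdk4, which blocks pyruvate dehydrogenase in fasting, had signals between 184 and 2492 units in IDFP-treated mice (median 728), against 82.3 to 126 in DMSO-treated mice (median 107) (log2 change 2.70, SE 0.45, adjusted p = 0.000339), so that the highest IDFP-treated mouse exceeded the lowest by over 10-fold. The lowest still exceeded all DMSO-treated mice. Cs, citrate synthase, had signals of 979.5 to 1168 units after IDFP with a median of 1105, and 691 to 856 after DMSO with a median of 811 (log2 change 0.46, SE 0.08, adjusted p = 0.00034) without overlap, a small and even change. Of 21 genes of pyruvate and the citric acid cycle 6 were higher (28.6%, against 6.76% of all genes) and 0 lower, with a median of 0.17 (3 called without DMSO 5). Of 25 genes of insulin and FOXO signaling, 8 were higher (32%, against 6.76% of all genes) and 1 was lower, with a median of 0.04. Sesn1, an inhibitor of mTORC1, had signals from 342 to 675 units (median 453) in the IDFP group and 190.0 to 261 (median 238) in the DMSO group (log2 change 0.99, SE 0.13, adjusted p = 4.36e-05). Irs2, an adaptor of the insulin receptor, was at 0.89 (adjusted p = 0.0176), the coactivator Ppargc1a at 0.90 (adjusted p = 0.0048), and Foxa2, a transcription factor of hepatocytes, was the one lower, at -0.51 (adjusted p = 0.00345). G6pc, the last enzyme of glucose release, had signals between 6801 and 18497 units in IDFP-treated mice (median 11882), against 2618 to 6772 in DMSO-treated mice (median 4517) (log2 change 1.39, SE 0.24, adjusted p = 0.000447), but of 26 genes of glucose and glycogen in all only 2 were higher and 1 lower, 11.5% against 16.3% of all genes (1 called without DMSO 5, DMSO 6 or IDFP 6). Among enzymes of amino acid breakdown, Got1, the cytosolic aspartate aminotransferase, had 337 to 707 units after IDFP with a median of 505, and 173 to 299 after DMSO with a median of 251 (log2 change 1.06, SE 0.16, adjusted p = 0.000131), and of 52 tested 7 were higher and 0 lower (4 called without DMSO 5). These 7 are 13.5% of the list, where 16.3% of all genes were called and 6.76% were higher.

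Receptors and regulators of lipid and bile acid metabolism were among the called genes. Nr1h4, which encodes the bile acid receptor FXR, had signals from 2629 to 3885 units (median 3080.0) in the IDFP group and 5546 to 6891 (median 6221) in the DMSO group (log2 change -0.97, SE 0.10, adjusted p = 2.85e-06). Each IDFP-treated mouse was below each DMSO-treated mouse. Klb, which encodes beta-klotho, the coreceptor for FGF21 and for the ileal hormone FGF15, had signals between 531 and 844 units in IDFP-treated mice (median 684), against 328 to 461 in DMSO-treated mice (median 397) (log2 change 0.74, SE 0.13, adjusted p = 0.00045), again without overlap and opposite in direction to Fgf21. Of 29 bile acid genes, 3 were higher and 1 was lower, 13.8% called against 16.3% of all genes (2 called without DMSO 2, DMSO 5 or IDFP 2). Hnf4a, a transcription factor that maintains hepatocytes, was lower, at -0.43 (adjusted p = 0.0237), a call lost without DMSO 4 or DMSO 5. Srebf1, the regulator of fat synthesis, had signals of 112 to 395 units after IDFP with a median of 129, and 56.8 to 93 after DMSO with a median of 67.5 (log2 change 1.16, SE 0.25, adjusted p = 0.00339). Genes of the lipid droplet moved both ways. Hilpda and G0s2 both encode inhibitors of the triglyceride lipase ATGL: Hilpda had signals from 377 to 1061 units (median 578) in the IDFP group and 208 to 248 (median 223) in the DMSO group (log2 change 1.33, SE 0.20, adjusted p = 0.000159). G0s2 had between 202 and 729 units in IDFP-treated mice (median 399.5), against 639.8 to 1826 in DMSO-treated mice (median 1382) (log2 change -1.67, SE 0.28, adjusted p = 0.000339). Cidec, which enlarges lipid droplets, was at 0.94 (adjusted p = 0.00322). Dgat2, which makes triglyceride, was at 0.46 (adjusted p = 0.0131), and in the list of fat synthesis 5 of 29 were higher and 2 lower, 24.1% called against 16.3% of all genes (4 called without DMSO 3, DMSO 4 or DMSO 5). Lpcat3, which puts polyunsaturated chains into phospholipids, had signals of 2854 to 3849.9 units after IDFP with a median of 3078, and 1914 to 2375 after DMSO with a median of 2112 (log2 change 0.59, SE 0.11, adjusted p = 0.000769). Sphk1, which makes sphingosine 1-phosphate, had from 95.8 to 366 units (median 145) in the IDFP group and 58.7 to 77.3 (median 72.2) in the DMSO group (log2 change 1.13, SE 0.27, adjusted p = 0.00675), although its second probe gave a log2 change of 0.08. The groups of Lpcat3 and of Sphk1 did not overlap. Genes of PPARα and fat oxidation were at or below the background, with 2 of 33 higher and 0 lower. Apolipoproteins were too, with only Apoa5, which activates triglyceride clearance, called of 20 (log2 change -0.60, SE 0.15, adjusted p = 0.00695). The list had 2 called without DMSO 1.

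Among other genes with large changes were single histone genes. Of 40 histone genes 5 were higher and 0 lower (8 called without IDFP 2). This is 12.5%, where 16.3% of all genes were called and 6.76% were higher. The linker histone H1f2 had signals between 3786 and 8475 units in IDFP-treated mice (median 7453), against 1750.3 to 3034 in DMSO-treated mice (median 2409) (log2 change 1.51, SE 0.18, adjusted p = 1.27e-05), and H3f3b, which encodes the replacement histone H3.3, had 9608 to 14088 units after IDFP with a median of 13463, and 4568 to 7475 after DMSO with a median of 5974 (log2 change 1.04, SE 0.12, adjusted p = 1.43e-05). H3c13 and H3c14, whose sequences are nearly identical so that their probes may share transcripts, were at 0.99 (adjusted p = 6.5e-05) and 1.00 (adjusted p = 1.31e-05). Of the chaperones, Dnajc12 had signals from 205 to 438 units (median 309) in the IDFP group and 1009 to 1813 (median 1289) in the DMSO group (log2 change -2.12, SE 0.18, adjusted p = 4.53e-07). Cirbp, a cold-inducible RNA-binding protein, had between 388 and 662 units in IDFP-treated mice (median 536), against 220.2 to 336 in DMSO-treated mice (median 255) (log2 change 1.02, SE 0.17, adjusted p = 0.000416). In the unfolded protein response, the transcription factor Xbp1 was at -1.21 (adjusted p = 7.96e-06) and its target Dnajb9 at -1.11 (adjusted p = 0.000339), whereas Creb3l3 and Herpud1 were at 0.53 and 0.50, so that 2 of 33 were higher and 5 lower. In this list 21.2% were called, against 16.3% of all genes. Trp53inp1, a target of p53, had signals of 2002 to 4124 units after IDFP with a median of 3032, and 482 to 1704 after DMSO with a median of 874 (log2 change 1.76, SE 0.23, adjusted p = 3.19e-05). Cdkn1a, the cell cycle inhibitor p21 and a target of p53 as well, had from 1334 to 3706 units (median 2017) in the IDFP group and 323 to 1002 (median 915) in the DMSO group (log2 change 1.69, SE 0.33, adjusted p = 0.00136). The groups were apart for each of them. Of 22 p53 targets and growth arrest genes 3 were higher, 2 were lower and 17 did not pass, with a median of 0.07. This is 22.7% called, against 16.3% of all genes. The lower members were Polk, a DNA polymerase that copies damaged DNA, at -0.87 (adjusted p = 0.00118) and Rrm2b, a ribonucleotide reductase subunit, at -0.62 (adjusted p = 0.00646). Tbx3, a T-box factor that Wnt signaling induces around central veins, had signals between 145 and 337 units in IDFP-treated mice (median 262), against 421 to 1050.3 in DMSO-treated mice (median 644) (log2 change -1.51, SE 0.20, adjusted p = 4.93e-05), and its dimmer probes gave log2 changes of -0.34 and -1.19. In the list of Wnt signaling and zonation 5 of 22 were lower (22.7%, against 9.53% of all genes) and 1 was higher (3 called without DMSO 3, DMSO 5 or IDFP 6 and 2 called without DMSO 4), and Cyp2e1, its brightest member, was at 0.01. Among genes that shape the cytoskeleton through small GTPases, Arhgap26 had signals of 103 to 161 units after IDFP with a median of 140.4, and 41.2 to 66.6 after DMSO with a median of 52.1 (log2 change 1.35, SE 0.18, adjusted p = 3.45e-05) and Dnmbp had from 85.6 to 213 units (median 118) in the IDFP group and 38.1 to 69.8 (median 50.7) in the DMSO group (log2 change 1.27, SE 0.18, adjusted p = 7.27e-05). Detoxifying enzymes were near the background of 6.76% higher and below that of all calls. Of phase II enzymes 6.67% and of cytochromes P450 and partners 8.89% were called, against 16.3% of all genes. Of 45 phase II enzymes 3 were higher and 0 lower (5 called without IDFP 1). Of 45 cytochromes P450 and partners 3 were higher and 1 lower (1 called without DMSO 2, IDFP 3, IDFP 4 or IDFP 5, 0 called without DMSO 3, DMSO 4, DMSO 5, IDFP 2 or IDFP 8, 2 called without IDFP 1 or IDFP 7).

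**Figure D4:**
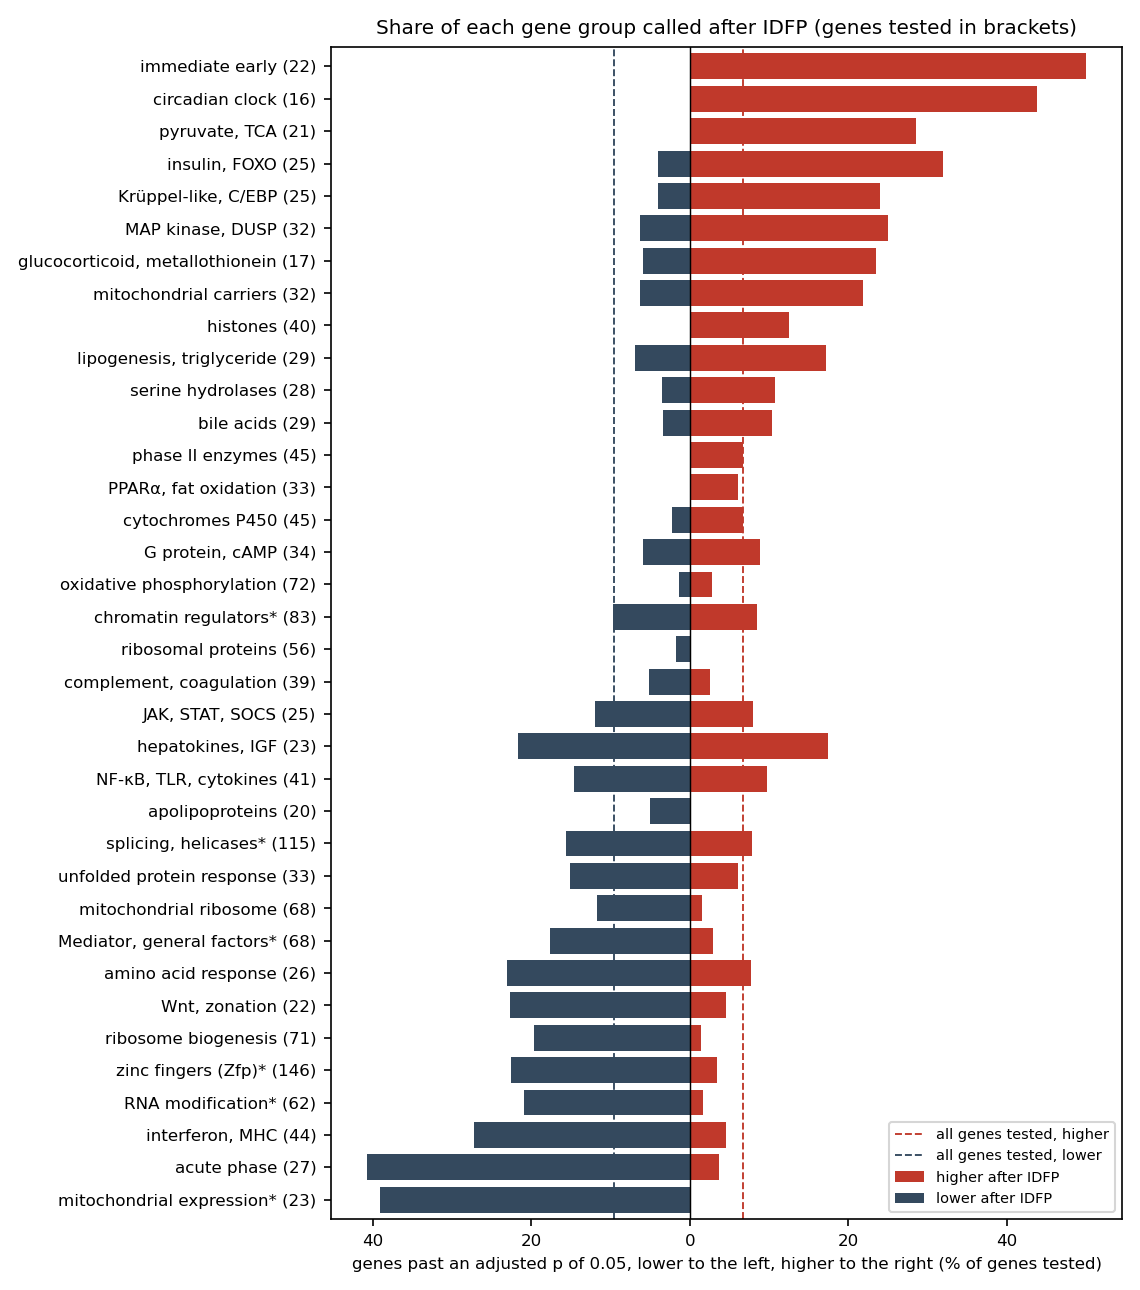
Share of the genes tested in each group that were called, with higher after IDFP to the right (red) and lower after IDFP to the left (dark blue), both in percent of the genes tested (in brackets). Dashed lines are the shares over all genes, 6.76% higher and 9.53% lower. Groups with an asterisk were put together after their values had been seen. The other groups were chosen with earlier results of these data known. Among the groups shown, immediate early and clock genes are at the top and acute phase and mitochondrial expression genes at the bottom. Gene lists outside the figure do not enter this order.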

How the data were processed

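Before deposit, the authors subtracted background from the intensities and quantile normalized them (BeadStudio 3.2, a version named in the submitters' processing notes), and 30.1% of the values lie below 0, with medians per array of 18.5 to 18.6. The genome build and annotation are not given in the sources used here. Another deposited table, of 38 columns named by chip position, was not used, because its columns could not be tied to mice, and chip effects were not tested. Of 25697 probes, 23978 have 1 gene symbol, 0 have several and 1719 have none here, and 23962 matched RefSeq.

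The tests had been planned for raw signals with detection p-values. Detection was taken instead as a value above 1.64 times the background SD, the root mean square of an array's values below 0 (10.6 to 10.7), on most arrays of 1 or more groups. This gave 9349 genes, each represented by its brightest detected probe. Values were corrected by normexp (offset 16), log2 transformed and quantile normalized again. A linear model of all 3 groups was fitted with limma 3.58.1 (R 4.3.3; lmFit, then eBayes), with Benjamini-Hochberg adjustment over all genes and a threshold of 0.05. Promoter sequences are from RefSeq (GRCm38.p6), and 7626 of the tested genes had one. Tables and plots were made in Python 3.11.15 with numpy 2.4.6, pandas 2.3.3 and matplotlib 3.10.9.

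The comparison, the 48 gene lists and the tests were chosen with earlier results of these data known. Genes named in the text are part of those that a rule gives: the 15 largest rises and falls without overlap between groups, up to 6 members of a list by smallest p, every serine hydrolase and the brightest gene of a list. The text marks those picked later, with values in view. The mice had been randomized to chips. Every array is a separate mouse, and replicate numbers were not taken as pairs in the main fit. The number of arrays limits the precision: on simulated data of 9349 genes, the test of IDFP against DMSO recovered 94.6% of 2-fold and 77.8% of 1.5-fold changes. Only 100 of the 9349 carried the 1.5-fold change there, whereas 1523 genes were called in the measured data. The share of real changes recovered in the measured data was not tested. Alternatives were another offset, a floor of 10 units in place of normexp, median scaling, other detection filters, the mean over probes, the fit of the 2 groups alone, an intensity trend, array weights, the replicate block, an adjusted p of 0.01 and leaving out each array.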

Additional observations from a re-analysis of the deposited data

Results flagged for a closer look

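In some groups 1 mouse stood far from the others of its group. The gap to the nearest mouse, divided by the whole range of log2 signals in the group, was compared with Dixon's critical value, 0.526 for the 8 IDFP-treated and 0.625 for the 6 DMSO-treated mice. Of 306 groups of the genes named with values, 19 exceeded it, where chance gives about 1 in 20. After IDFP these were Acta2 (highest in IDFP 4, 0.769), Eif4ebp1 (highest in IDFP 6, 0.576), Gadd45b (lowest in IDFP 1, 0.674), Icam1 (lowest in IDFP 3, 0.56), Ifi47 (lowest in IDFP 6, 0.549), Mapkapk2 (highest in IDFP 8, 0.677), Mars1 (highest in IDFP 6, 0.795), Mknk2 (highest in IDFP 6, 0.595), Mterf3 (highest in IDFP 1, 0.531), Nfkbie (highest in IDFP 8, 0.618), Taf5 (lowest in IDFP 7, 0.561) and Zfp60 (highest in IDFP 1, 0.593). After DMSO they were Angptl8 (highest in DMSO 3, 0.647), B2m (lowest in DMSO 5, 0.651), Faah (highest in DMSO 3, 0.766), Gadd45b (highest in DMSO 6, 0.819), Jun (lowest in DMSO 3, 0.732), Nfkbia (highest in DMSO 6, 0.659) and Sphk1 (lowest in DMSO 2, 0.644). No test of these mice was made.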

How the results depend on the processing

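The number of genes called for IDFP vs. DMSO lay between 1227 (no filter on dim probes) and 1644 (array weights) under the alternatives other than the replicate block, the stricter threshold and the leave-outs, against 1523 as reported. It was 711 at an adjusted p of 0.01, with 251 higher and 460 lower genes, and the called members of the gene lists were then 134 in place of 269. For genes called at 0.01, the median held-out pair had 94.0% in the fitted direction. Leaving out single mice gave 407 to 716 higher, 642 to 1037 lower and 1049 to 1753 genes in all, and 191 to 308 list members. Without DMSO 5 the 632 higher genes fell to 407, the lowest number. With the replicate number as a block, 1025 genes were called, 408 of them higher, and 200 of the list members. The deviations of same-numbered mice correlated between -0.19 and 0.27, with 2 of the 6 numbers above 0.1, so that no pairing common to all numbers was seen. Whether single numbers share a chip could not be tested, because chips could not be tied to mice. Of 153 genes named with values, 140 were called and none reversed. Under the block 8 of these calls were lost, at an adjusted p of 0.01 15, without the filter 2 (Abhd12 and Cd3e), with the mean over probes 2 (Keap1 and Mrpl1), with an offset of 50 1 (Cd3e), and under the other alternatives that keep all mice none. Leaving out single mice ended 5, those of Abhd12, Apeh, Cd3e, Clec4g and Hnf4a. The cause was not tested. Dim signals and the offset limit fold changes of genes near background.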

Other observations

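Single genes of iron handling were called in both directions. Tfrc, the receptor that takes up transferrin, had signals between 327 and 546 units in IDFP-treated mice (median 457), against 164 to 323 in DMSO-treated mice (median 250.2) (log2 change 0.86, SE 0.19, adjusted p = 0.0045), without overlap, whereas Slc11a2, the iron transporter DMT1, was at -0.70 (adjusted p = 0.0021). Of 27 genes of iron and heme 4 were higher and 2 were lower, 22.2% called against 16.3% of all genes (10 called without DMSO 6), and Fth1, the heavy chain of ferritin and the brightest of them, was at -0.05. Naprt, which makes NAD from nicotinic acid, had signals of 3743 to 4944 units after IDFP with a median of 3996, and 5337 to 6914 after DMSO with a median of 5856 (log2 change -0.52, SE 0.09, adjusted p = 0.000675), without overlap, but its other probes gave log2 changes of -0.10 and -0.12. The sensor Keap1 and its target Nfe2l2 (NRF2) were both lower, at -0.37 (adjusted p = 0.014) and -0.65 (adjusted p = 0.00144), with log2 changes of -0.38, 0.10 and -0.03 for the other probes of Keap1. Of 26 genes of this pathway 1 was higher and 2 were lower, a share of 11.5% called.

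Single genes of cell contacts and of autophagy were called, in lists near the background share. Gja4, a gap junction protein of vessels, had signals from 491 to 1167 units (median 867) in the IDFP group and 176 to 595 (median 355) in the DMSO group (log2 change 1.26, SE 0.25, adjusted p = 0.00144), and Gjb2, the gap junction protein of hepatocytes, was at -0.40 (adjusted p = 0.0108), with log2 changes of -0.24 and -0.34 for its other probes. The tight junction protein F11r had signals between 278 and 405 units in IDFP-treated mice (median 356), against 204 to 299 in DMSO-treated mice (median 247) (log2 change 0.51, SE 0.09, adjusted p = 0.000615). Of 47 genes of junctions and adhesion 5 were higher and 4 lower, 19.1% against 16.3% of all genes (5 called without DMSO 5). Uvrag, which promotes autophagosome formation, had signals of 842 to 1169 units after IDFP with a median of 959, and 382 to 721 after DMSO with a median of 514 (log2 change 0.88, SE 0.15, adjusted p = 0.000433), and Fbxo21, a subunit of a ubiquitin ligase, had from 1304 to 1929.9 units (median 1671) in the IDFP group and 772 to 1291 (median 1058) in the DMSO group (log2 change 0.68, SE 0.14, adjusted p = 0.0021), both without overlap. Of 32 genes of autophagy and lysosomes 5 were higher and 0 lower, 15.6% (3 called without DMSO 4 or IDFP 5). Krt8, a keratin of hepatocytes, was at 1.11 (adjusted p = 0.00272) and Actn4, an actin cross-linker, at 0.70 (adjusted p = 0.00318). Among mitochondrial carriers 7 of 32 were higher (21.9%, against 6.76% of all genes) and 2 lower, 28.1% called against 16.3% of all genes. Of these 9 calls, 5 were counted with the replicate block and 3 at an adjusted p of 0.01. Slc25a15, the ornithine carrier of the urea cycle, was at 0.64 (adjusted p = 0.00112).

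The stellate cell marker Acta2, smooth muscle actin, named here after its values were seen, ranged from 198 to 7929 units among IDFP-treated mice, with the highest value in IDFP 4, and from 112 to 564 among DMSO-treated mice, and it was not called (adjusted p = 0.341).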
